A study of Mus musculus with 11 samples.

Results

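Adipose progenitor and fibroblast genes were followed here as a set of 10 named members: Pdgfra, Pdgfrb, Dpp4, Pi16, Cd34, Ly6a, Dpt, Mfap5, Fap and Thy1. They were named by symbol for their known place in adipose stroma, with earlier results of these data known. All 10 were among the 12787 genes measured. The RNA came from gonadal white adipose tissue (WAT) of male mice of the C57Bl6/J strain, 1 mouse per library. The HFD control group (n = 5) was kept on a 60% high fat diet for 20 weeks as the vehicle cohort, and the HFD + IMC group (n = 6) received the same diet with 0.06% w/w iodomethylcholine (IMC), a gut microbe-targeted inhibitor of the enzyme that makes trimethylamine from choline. Every mouse was on the high fat diet, and the labels give no age for these mice. A further control library had been dropped by the submitters for quality, and it is not analysed here.

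White adipose tissue holds, beside its fat-filled adipocytes, a stroma of fibroblast-like cells that lie around vessels and in the connective tissue between the lobules. Some of these cells can become adipocytes. The platelet-derived growth factor receptor alpha (Pdgfra) is the receptor by which they are most often recognised, the surface proteins CD34 and SCA1 (Ly6a) are used to sort them, and DPP4 and PI16 mark a pool within them that is held to be the earliest. In the same cells, dermatopontin (Dpt) and the microfibril protein Mfap5 are parts of the matrix that they lay down. Several of these proteins are also found outside the stroma: Thy1 is on T cells, Cd34 on endothelium, Pdgfrb on mural cells and Dpp4 on lymphocytes and epithelia. In bulk tissue, fewer cells of a type and less RNA per cell cannot be told apart.

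Libraries held 22320022 to 25155366 reads on the listed genes, so that 1 read was worth 0.0403 to 0.0450 CPM, the counts scaled to a library of 1000000 reads. The members were covered by 432 (Fap) to 16423 (Dpt) reads per mouse. All values below are log2 CPM as deposited, after upper-quartile scaling, unless CPM is named. A difference is the mean of the HFD + IMC mice minus the mean of the HFD control mice on the log2 scale, and it was tested with limma across all 12787 genes at a Benjamini-Hochberg adjusted p under 0.05.

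The stromal members went down or did not pass the test, and none went up. Thy1, Pi16, Mfap5, Ly6a and Cd34 were lower with IMC, and Pdgfra, Pdgfrb, Dpp4, Fap and Dpt did not pass. Of the 10 members, 5 (50%) were called lower, beside 21% of all genes, and 0 were called higher, beside 20% of all genes. At an unadjusted p under 0.05 in limma, 6 were lower and 0 higher. Calls in either direction took in 40.9% of all genes. All 10 differences lay below 0, where 54.4% of all genes did. Those of Dpp4 and Dpt lay above 0 without IMC-treated mouse 4. The members' median difference was -0.28, and that of all genes was -0.03. In 3 members (30%), Pi16, Ly6a and Thy1, every IMC-treated mouse was below every control mouse, which held for 10.5% of all genes; the opposite order, which held for 12.5% of all genes, was seen in none.

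**Figure D1:**
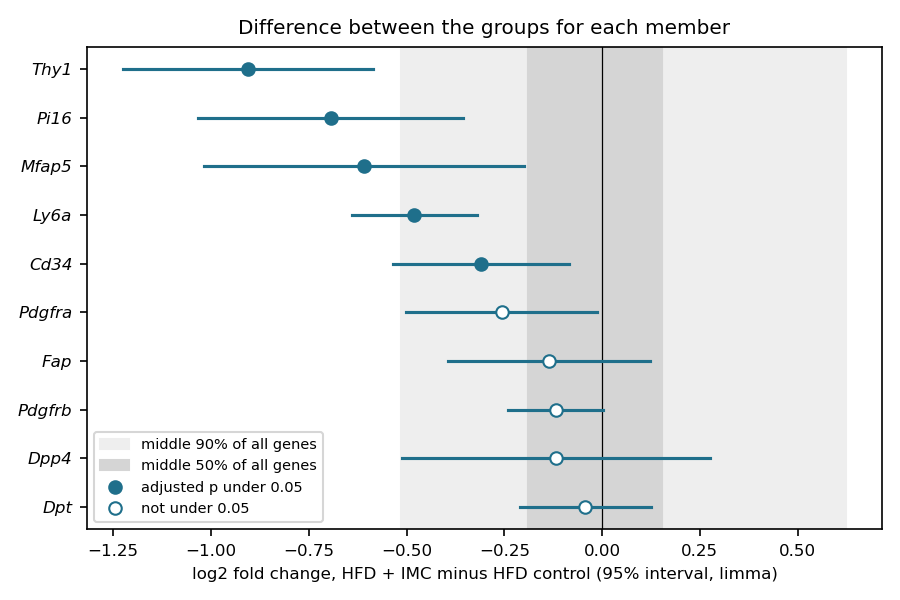
Difference in log2 CPM, HFD + IMC minus HFD control, for each member, with its 95% interval from limma (5 control and 6 IMC-treated mice). Filled points passed the adjusted threshold, and the grey bands run from the 25th to the 75th and from the 5th to the 95th percentile of all 12787 genes; the points run from -0.91 for Thy1 to -0.04 for Dpt.

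Pi16 encodes peptidase inhibitor 16, a secreted protein of the earliest adipose progenitors, and lies on chromosome 17 (GRCm38, chr17:29317680-29330593, plus strand). HFD control mice 1 to 5 had 7.28, 7.27, 7.37, 7.002 and 7.33 log2 CPM, and the IMC-treated mice ran from 6.06 over a median of 6.68 to 6.98. The groups did not overlap, although IMC-treated mouse 5 lay just under control mouse 4. Pi16 fell by 0.69 (SE 0.16, 95% interval -1.03 to -0.35, limma, Benjamini-Hochberg adjusted p = 0.00369), which is a fold of 0.618. Its spread was unequal, with an SD of 0.14 in the controls and 0.39 with IMC, where mice 2 and 4 stood at 6.09 and 6.06 and the other 4 between 6.58 and 6.98.

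Ly6a encodes SCA1, a small protein tethered to the outer membrane by a lipid anchor (chr15:74994877-74998031, minus strand). Control mice 1 to 5 had 7.99, 7.88, 7.88, 7.98 and 7.94 log2 CPM, the tightest of the members in that group, with an SD of 0.05. The IMC-treated mice ran from 7.27 over a median of 7.39 to 7.72, and none reached the lowest control. Ly6a fell by 0.48 (SE 0.07, 95% interval -0.64 to -0.32, limma, Benjamini-Hochberg adjusted p = 0.000323), the smallest adjusted p of the 10. Ly6a sits among similar genes of its family, between which reads could have been split, which was not measured.

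Cd34 encodes a sialomucin of the cell surface that progenitors share with endothelium (chr1:194938819-194961279, plus strand). Control mice 1 to 5 had 8.06, 8.20, 8.34, 8.07 and 8.03 log2 CPM, and the IMC-treated mice ran from 7.46 over a median of 7.86 to 8.13. Of the 6 treated mice, 5 were below every control, and mouse 5 was inside the control range. Cd34 fell by 0.31 (SE 0.10, 95% interval -0.54 to -0.09, limma, Benjamini-Hochberg adjusted p = 0.0298). This call rested on single mice: the adjusted p was 0.0589 without control mouse 2, 0.0813 without control mouse 3 and 0.0625 without IMC-treated mouse 2. Of the 12 endothelial markers, from cells that also carry Cd34, 3 were higher and 0 lower, beside 20% and 21% of all genes. Cdh5 rose by 0.41, Flt1 by 0.40 and Egfl7 by 0.34, though the call of Egfl7 was lost without the trend in limma (adjusted p = 0.0596), with total-count scaling (0.0704) and in 7 of the 11 fits without 1 mouse. The markers' summed level was 676 to 884 CPM in controls and 752 to 1060 CPM with IMC.

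Promoters are shown for Pi16 and Cd34, which were called lower, and for Dpt, whose difference was the nearest to 0 of the 10. RefSeq promoters (GRCm38.p6) were matched by symbol for 5 of the 10 members, Pdgfra, Dpp4, Pi16, Cd34 and Dpt. Each window below runs 5′ to 3′ from 250 bases before to 30 bases after the RefSeq start, on the plus strand, at chr17:29318632-29318911 for Pi16, which lies inside the GENCODE span given above because the RefSeq start is downstream of the GENCODE one, chr1:194938571-194938850 for Cd34 and chr1:164796413-164796692 for Dpt. Capitals mark matches on either strand to 5 motifs, namely the TATA box TATAAA, the GC box GGGCGG, the CCAAT box, the TEAD motif GGAATG and the AP-1 motif TGANTCA.
Pi16: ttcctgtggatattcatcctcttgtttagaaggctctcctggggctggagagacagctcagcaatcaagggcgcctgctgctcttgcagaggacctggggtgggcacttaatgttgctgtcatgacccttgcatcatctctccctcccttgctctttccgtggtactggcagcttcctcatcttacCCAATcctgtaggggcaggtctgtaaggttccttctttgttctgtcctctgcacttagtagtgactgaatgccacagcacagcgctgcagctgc
Cd34: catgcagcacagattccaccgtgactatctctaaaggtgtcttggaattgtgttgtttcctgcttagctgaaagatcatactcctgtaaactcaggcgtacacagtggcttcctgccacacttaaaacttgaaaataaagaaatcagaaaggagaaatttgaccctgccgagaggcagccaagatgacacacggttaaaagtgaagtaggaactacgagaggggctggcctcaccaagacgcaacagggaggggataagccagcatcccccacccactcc
Dpt: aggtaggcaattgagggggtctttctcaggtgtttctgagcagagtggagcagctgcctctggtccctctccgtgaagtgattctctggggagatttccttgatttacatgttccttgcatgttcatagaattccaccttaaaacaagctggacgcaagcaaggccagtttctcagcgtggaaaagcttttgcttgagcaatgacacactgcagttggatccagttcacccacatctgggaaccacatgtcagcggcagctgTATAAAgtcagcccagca
The Pi16 window held CCAAT at base 187, before the RefSeq start. The Dpt window held TATAAA at base 263, which lies after the RefSeq start and not upstream of it. The Cd34 window held none of the 5. In the windows that are not printed, Dpp4 had TATAAA at base 24 and GGAATG, read on the other strand, at base 133, and Pdgfra had none. No matches overlapped each other. Over 27025 promoters of the same length, TATAAA was found in 13.7%, GGGCGG in 34.9%, CCAAT in 36.6%, GGAATG in 13.9% and TGANTCA in 7.57%. The GC content was 53.6% for Pi16, 48.6% for Cd34 and 49.6% for Dpt, and the median of all promoters was 52.5%. A match describes the letters in the window and nothing about a factor bound there.

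Thy1, the CD90 antigen of fibroblasts and of T cells, had the largest difference of the 10 (chr9:44043384-44048579, plus strand). Control mice 1 to 5 had 6.34, 5.61, 5.56, 5.55 and 5.54 log2 CPM, and the IMC-treated mice ran from 4.59 over a median of 4.78 to 5.19. The groups did not overlap, and control mouse 1 stood apart from the other 4. Thy1 fell by 0.91 (SE 0.15, 95% interval -1.22 to -0.59, limma, Benjamini-Hochberg adjusted p = 0.00048), a fold of 0.534, and by 0.75 without control mouse 1. Among 12 T and NK cell markers, the defining Cd3d, Cd3e, Cd3g, Cd4, Cd8a, Lck, Cd247 and Skap1 were not in the table, and 4 were listed. Of these 4, Il7r was lower by 0.42 (limma, Benjamini-Hochberg adjusted p = 0.0261) and 3 did not pass, beside 21% of all genes lower. The 4 summed to 154 to 223 CPM in controls and 104 to 167 CPM with IMC, and control mouse 1, at 188 CPM, was not the highest. Il7r made up most of this sum, at a control mean of 7.38 log2 CPM beside 2.75 for Cd2, 2.57 for Nkg7 and 1.05 for Klrb1c. The part of T cells in the Thy1 difference was not tested.

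Dpp4 and Fap encode sister serine proteases that cut after proline and sit on the cell surface. Both genes lie on the minus strand of chromosome 2, Dpp4 at chr2:62330073-62412231 and Fap at chr2:62500943-62574075, 88711 bases apart, with 1 protein-coding gene, Gcg, between them. Dpp4 is the marker after which the early progenitor pool is named, and Fap is the fibroblast activation protein.

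Dpp4 was at 5.69, 5.71, 6.21, 5.94 and 5.78 log2 CPM in control mice 1 to 5 and at 6.05, 6.23, 5.90, 5.05, 5.85 and 5.39 in IMC-treated mice 1 to 6. Treated mice 4 and 6 were below every control, and mouse 2 was above every control. The median was 5.78 in controls and 5.88 with IMC, the opposite order to the means. The difference was -0.12 (SE 0.18, 95% interval -0.51 to 0.28, limma, Benjamini-Hochberg adjusted p = 0.636), and it was 0.020 without IMC-treated mouse 4. The interval leaves room for a fall of 0.51, so the test does not show that Dpp4 stayed where it was. Dpp4 was among the more variable genes of the table: its SD within groups, 0.36, was higher than that of 92.2% of genes.

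Fap, the lowest of the 10 in reads, was at 4.54, 4.47, 4.84, 4.48 and 4.22 log2 CPM in the controls and ran from 4.13 over a median of 4.32 to 4.72 with IMC. The groups overlapped over most of their range. The difference was -0.14 (SE 0.12, 95% interval -0.39 to 0.12, limma, Benjamini-Hochberg adjusted p = 0.39). Among 8 listed prolyl peptidases of the same or related families, 1 was higher and 2 were lower, with a median of -0.08. Of all genes, 20% were higher and 21% lower. Dpp7, a lysosomal dipeptidase, fell by 0.73, Prcp, a lysosomal carboxypeptidase, fell by 0.29, and Prepl rose by 0.26. Dpp6 and Dpp10 were not in the table.

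Of the matrix members, Mfap5 was called and Dpt was not. Mfap5, a glycoprotein of elastin-associated microfibrils (chr6:122505845-122529290, plus strand), was at 7.84, 7.63, 8.14, 7.60 and 7.44 log2 CPM in control mice 1 to 5 and at 7.45, 6.57, 7.29, 7.44, 7.44 and 6.55 in IMC-treated mice 1 to 6. Treated mice 2 and 6 stood well below the other 4, and mice 1 and 5 lay just above the lowest control. Mfap5 fell by 0.61 (SE 0.19, 95% interval -1.02 to -0.20, limma, Benjamini-Hochberg adjusted p = 0.0212). Without control mouse 3 it fell by 0.51 and the adjusted p was 0.0604. Its SD within groups, 0.37, was higher than that of 93.2% of genes, the widest of the members.

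Dpt, which encodes dermatopontin, a small protein that binds decorin and collagen fibrils (chr1:164796644-164824266, plus strand), was at 9.13, 9.20, 9.27, 9.18 and 9.33 log2 CPM in the controls. With IMC it ran from 8.93 over a median of 9.16 to 9.40, so that treated mice lay on both sides of the controls. The difference was -0.04 (SE 0.08, 95% interval -0.21 to 0.12, limma, Benjamini-Hochberg adjusted p = 0.689), and it was 0.0069 without IMC-treated mouse 4. Of the 5 members that did not pass, Dpt had the largest number of reads, and its interval reaches no lower than -0.21.

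Other microfibril and elastic fibre genes had calls in both directions. Of 14 listed, 2 were higher and 2 lower, beside 20% and 21% of all genes. The other 10 did not pass, and the median was -0.05. Lox, which cross-links elastin and collagen, rose by 0.82, and Ltbp3, which holds latent TGF-beta, rose by 0.57. Mfap4, a microfibril protein, fell by 0.72, and Efemp2, which brings Lox to elastin, fell by 0.29. Fbn2 was not in the table.

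**Figure D2:**
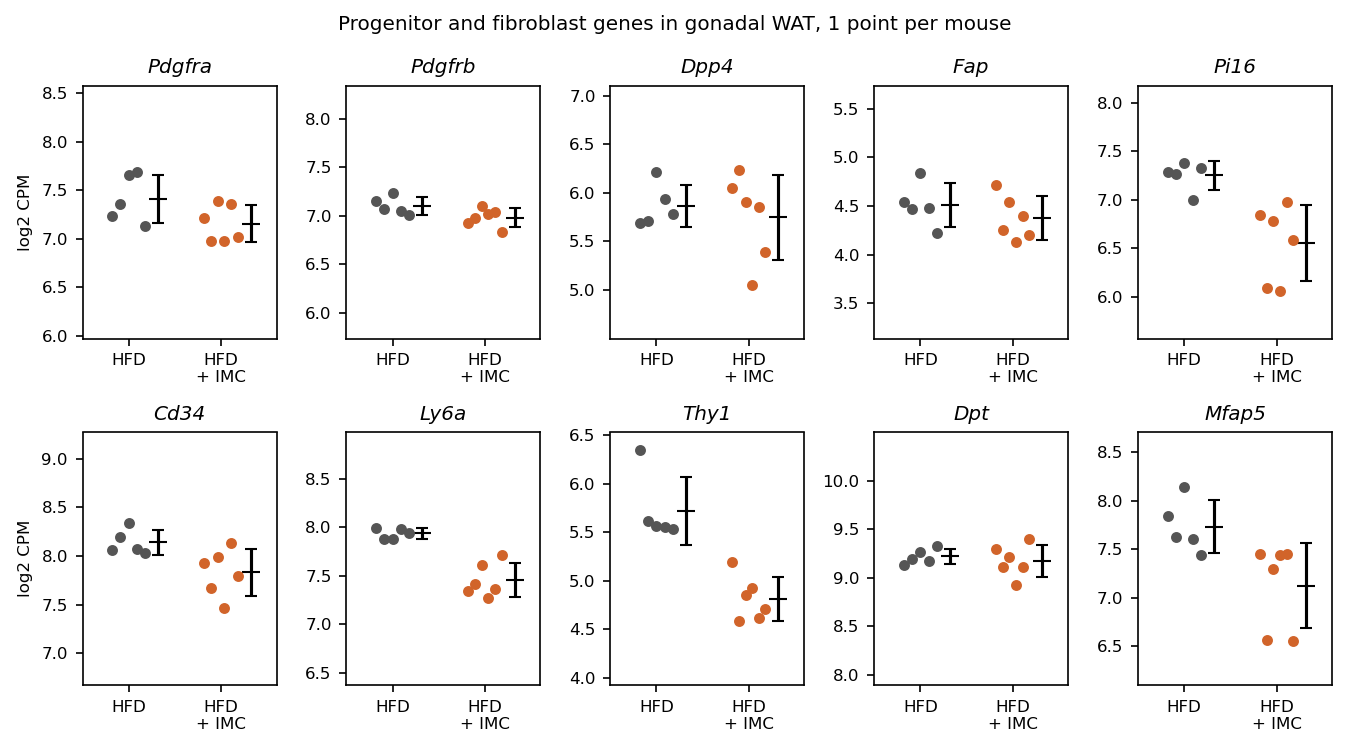
Log2 CPM of the 10 members in each mouse, 1 point per mouse, with the mean and SD of each group beside the points; every panel spans the same number of log2 units. Pi16, Ly6a and Thy1 show no overlap between the 5 HFD control and 6 HFD + IMC mice, and Dpp4 and Mfap5 show 2 low IMC-treated mice each.

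Compared per kilobase of merged exon, the members' levels in control mice spanned a wide range. Dpt was the highest at 346 CPM per kb (SD 19.0, n = 5), followed by Ly6a at 203 (SD 7.68), Mfap5 at 60.1 (SD 11.8) and Cd34 at 38.9 (SD 3.57). Next came Pdgfrb at 25.1 (SD 1.59), Pi16 at 24.0 (SD 2.28), Thy1 at 18.1 (SD 5.05) and Pdgfra at 17.2 (SD 2.97) CPM per kb, and these 4 overlapped with their neighbours in the order. The proteases were lowest, Dpp4 at 9.31 (SD 1.5) and Fap at 4.06 (SD 0.644) CPM per kb, and neither overlapped with its neighbours. With IMC, Pi16 stood at 15.2 CPM per kb (SD 3.89, n = 6), Thy1 at 9.50 (SD 1.56) and Pdgfra at 14.3 (SD 1.90), beside 23.1 (SD 1.52) for Pdgfrb.

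The 2 PDGF receptors are tyrosine kinases, the alpha form on fibroblasts and progenitors and the beta form also on mural cells. Pdgfra (chr5:75152292-75198215, plus strand) was at 7.23, 7.36, 7.66, 7.68 and 7.13 log2 CPM in control mice 1 to 5, and with IMC it ran from 6.98 over a median of 7.12 to 7.39. Treated mice 2, 4 and 6 were below every control, and control mice 3 and 4 above every treated mouse. The difference was -0.26 (SE 0.11, 95% interval -0.50 to -0.01, limma, Benjamini-Hochberg adjusted p = 0.0876); the unadjusted p was 0.0411. Without control mouse 5 the adjusted p was 0.0341.

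Pdgfrb, on chromosome 18 (chr18:61045150-61085061, plus strand), was at 7.15, 7.07, 7.24, 7.05 and 7.01 log2 CPM in the controls and ran from 6.83 over a median of 6.997 to 7.11 with IMC. The ranges overlapped, with 3 treated mice below every control and 2 controls above every treated mouse. The difference was -0.12 (SE 0.06, 95% interval -0.24 to 0.0025, limma, Benjamini-Hochberg adjusted p = 0.108). Its SD within groups, 0.09, was the smallest of the members, and higher than that of 26.9% of genes. With total-count in place of upper-quartile scaling the difference was -0.15 and the adjusted p 0.0404, and that scaling moved the median of all genes by -0.03.

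Of 11 mural markers, from cells that also carry Pdgfrb, 6 rose and 0 fell, beside 20% and 21% of all genes, and the median was 0.37. With total-count scaling, 5 were higher and 1, Des, lower (a difference of -0.23, limma, adjusted p = 0.0464). Mcam, a pericyte adhesion molecule, rose by 0.97, the proteoglycan Cspg4 by 0.96, smooth muscle actin Acta2 by 0.71 and Rgs5 by 0.62. Their summed level was 532 to 774 CPM in controls and 945 to 1221 CPM with IMC, without overlap. Pdgfrb lay below 0 beside them, and the part of mural cells in its value was not tested.

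Of 17 genes that act with the 2 receptors, 4 were higher and 4 lower, with a median of 0.01, beside 20% of all genes higher and 21% lower. Of the ligands, Pdgfb fell by 0.35 (SE 0.09, limma, Benjamini-Hochberg adjusted p = 0.0111) and Pdgfd rose by 0.26 (SE 0.08, adjusted p = 0.0174). Pdgfa, at a difference of 0.05 (adjusted p = 0.6), and Pdgfc, at 0.04 (adjusted p = 0.726), did not pass. Among proteins that dock on the active receptors, the phosphatase Ptpn11 rose by 0.48 and the phospholipase Plcg1 by 0.43, while the adaptor Grb2 fell by 0.27 and the Ras GTPase-activating protein Rasa1 fell by 0.36. The remaining calls were Pik3r1, the regulatory subunit of PI3-kinase, which rose by 0.35, and Plat, the protease that activates PDGF-CC, which fell by 0.23.

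Other genes of the progenitor states were read beside the members. Of 13 listed markers of the DPP4+ progenitor, 2 were higher and 5 lower, beside 20% and 21% of all genes. Their median was -0.29. Anxa3 fell by 0.65, Igfbp6 by 0.59, Clec3b by 0.51, Cd248 by 0.45 and Emilin2 by 0.42, whereas the actin-binding Limch1 rose by 1.35 and the secreted semaphorin Sema3c by 0.53. Bmp7 was not in the table.

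Of 11 listed committed preadipocyte markers, 5 were higher and 2 lower, beside 20% and 21% of all genes. Their median was -0.02. The adipogenic regulators Zfp423 and Pparg rose by 0.75 and 0.70, and the metalloprotease Adam12 rose by 0.30. The collagen genes Col15a1 and Col5a3 rose by 0.35 and 0.30. The adhesion molecule Icam1 fell by 0.51 and the chemokine Cxcl14 by 0.80. Zfp423 and Pparg are also expressed by mature adipocytes. All 12 of 12 adipocyte markers were higher, beside 20% of all genes, with a median of 0.92. Their summed level was 11369 to 16541 CPM in controls and 22807 to 27936 CPM with IMC. The part of adipocytes in the differences of the preadipocyte markers was not tested. Dlk1 was not in the table.

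Markers of the CD142+ stromal cells, which have been described as restraining adipogenesis, numbered 7. Of these, 0 were higher and 3 lower, beside 20% and 21% of all genes, with a median of -0.35. Clec11a fell by 0.86, the calcification inhibitor Mgp by 0.72 and F3, which encodes CD142 itself, by 0.39, and Cygb was at -0.35 (limma, Benjamini-Hochberg adjusted p = 0.0594). Of 18 general fibroblast genes, 0 were higher and 9 lower, beside 20% and 21% of all genes, with a median of -0.22. Postn fell by 0.68, Fbln1 by 0.63, the procollagen enhancer Pcolce by 0.53 and the gelatinase Mmp2 by 0.43. Col1a1, Col1a2, Dcn, Lum and Loxl1 made up the rest of the calls, falling by 0.24 to 0.37. The call of Loxl1 was lost without the trend in limma (adjusted p = 0.0567) and that of Col1a2 with median-of-ratios scaling (0.0554). In the 11 fits without 1 mouse, Col1a2 lost its call in 7, Loxl1 in 6 and Dcn in 1, and 6 to 9 of the list were lower.

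The LY6 relatives of Ly6a had calls upward. Of 5 listed, 3 were higher and 0 lower, beside 20% and 21% of all genes, with a median of 0.43. Cd59a, a complement inhibitor, rose by 0.94, Ly6h by 0.71 and Gpihbp1, which anchors lipoprotein lipase on capillaries, by 0.43. Ly6c1 was at -0.09 (limma, Benjamini-Hochberg adjusted p = 0.598) and Ly6e at 0.05 (adjusted p = 0.749). Only 1 of the 3 calls, Cd59a, was held without control mouse 1 or without control mouse 4. Ly6c2, Ly6d, Ly6g6c, Ly6k and Lypd2 were not in the table.

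Markers of other cells moved between the same groups, where 20% of all genes were called higher and 21% lower. Of 14 macrophage markers 11 were lower and 0 higher, with a median of -0.61 and a summed level of 11000.7 to 13882 CPM in controls against 6551 to 9368 CPM with IMC, without overlap. Of 7 listed mesothelial markers 2 were lower, Wt1 by 0.57 and Bnc1 by 0.63, and 0 higher, with a median of -0.45; the call of Bnc1 was lost in 6 of the 11 fits without 1 mouse. Of 5 listed Schwann cell markers, Pmp22 fell by 0.39, Scn7a rose by 0.41 and 3 did not pass, with summed levels of 534 to 588 CPM in controls and 451 to 532 CPM with IMC. None of 9 epididymal epithelium markers was in the table. The part of these cells in the members' differences was not tested. Where a list above had 0 genes in a direction, it had 0 there with voom as well, Des among the mural genes was called lower with total-count scaling, and at an unadjusted limma p under 0.05 the exceptions were Serpinf1 (a difference of 0.13) among the fibroblast genes and Des (-0.20) among the mural genes.

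**Figure D3:**
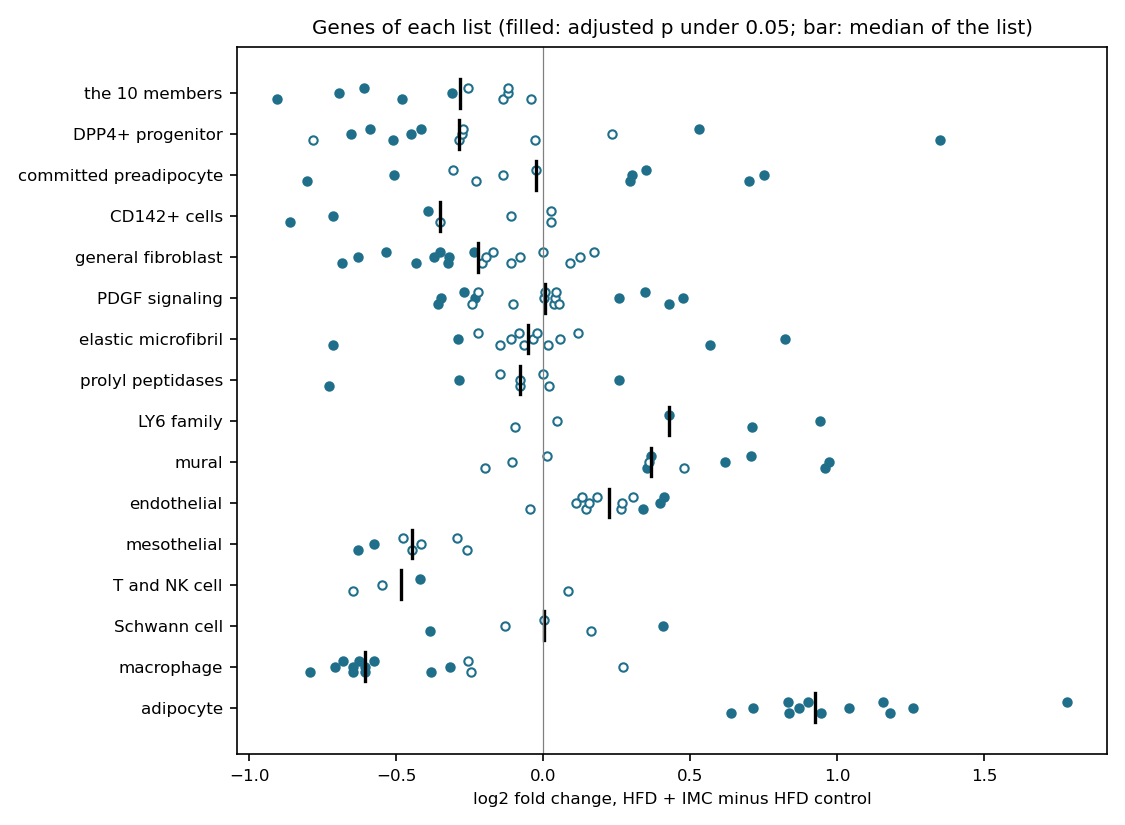
Differences in log2 CPM, HFD + IMC minus HFD control, for the listed genes of each list, 1 point per gene, with filled points for those past the adjusted threshold and a bar at the list's median. The members' bar stands at -0.28, those of the general fibroblast and macrophage lists at -0.22 and -0.61, and those of the mural and adipocyte lists at 0.37 and 0.92.

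Whether members differed from each other in their response was asked within each mouse, as the difference in log2 CPM between each pair of members, over all 45 pairs. Such a difference carries the lengths of both genes, which are the same in every mouse. In 18 pairs the unadjusted p was under 0.05 by a two-sided exact permutation test over the 462 splits of the mice, and in 8 the Benjamini-Hochberg adjusted p was too, at 0.0487 in each. These 8 pairs set Pi16 against Cd34, Dpt, Fap and Pdgfrb, Thy1 against Dpt, Fap and Pdgfrb, and Ly6a against Dpt. The Dpt minus Thy1 difference was 3.50 in controls and 4.36 with IMC, and the Ly6a minus Dpt difference was -1.28 in controls and -1.72 with IMC. Pi16 and Dpp4, the paired markers of the early progenitor, did not pass as a pair after adjustment: the Dpp4 minus Pi16 difference was -1.39 in controls and -0.81 with IMC, a two-sided exact permutation p of 0.0238 and an adjusted p of 0.0893. With 1 mouse left out, 0 to 9 pairs passed, and 0 passed in 8 of the 11 cases. Fewer mice give fewer splits and so a larger smallest p. How far these losses depend on single mice was not tested.

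Variation between mice of a group was shared only in part by the members. With each group's mean removed, 34 of the 45 pairs of members had a Pearson r above 0 over the 11 mice. The median was 0.29 and the range -0.53 to 0.87, and the highest was that of Pi16 with Cd34. No share over all pairs of genes stands beside this count, so it shows nothing particular to the members. Control mouse 3 was the highest control for 6 of the 10 members and control mouse 5 the lowest for 6. IMC-treated mouse 4 was the lowest treated mouse for 6 members, and mouse 3 was above its group's mean for all 10. The members summed to 1875 to 2128 CPM in controls and 1396 to 1726 CPM with IMC, without overlap.

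Dpp4 was set beside the listed mesothelial, progenitor and fibroblast genes from mouse to mouse. With group means removed, its median Pearson r over 11 mice was 0.90 (0.78 to 0.97) with 7 mesothelial markers, 0.18 (-0.17 to 0.83) with 13 DPP4+ progenitor genes and 0.37 (-0.14 to 0.90) with 18 general fibroblast genes. The ranges overlap: Dcn (r = 0.90) and Ogn (r = 0.88) of the fibroblast list and Igfbp6 (r = 0.83) of the progenitor list reached values of the mesothelial markers. Spearman's rho had a median of 0.92 with the mesothelial markers, and r was 0.85 without the 2 mice farthest from the median of Dpp4. Among all genes, the closest to Dpp4 were Gpm6a (r = 0.97, rho = 0.96) and Upk1b (r = 0.97, rho = 0.96), both mesothelial markers. The mesothelium is the flat lining that covers the gonadal fat pad. Pi16 had a median r of 0.33 with the same mesothelial markers and 0.43 with the DPP4+ progenitor genes. The median r with the mesothelial markers was 0.65 for Fap, 0.56 for Cd34, 0.47 for Pdgfra and 0.37 for Pdgfrb. For these members too this median r was higher than with either other list. By Spearman's rho the order held for Fap but not for Cd34, Pdgfra and Pdgfrb. Their median rho was 0.42, 0.31 and 0.26 with the mesothelial markers and 0.45, 0.40 and 0.29 with the progenitor genes. The median r with the mesothelial markers was 0.19 for Dpt, 0.13 for Mfap5, -0.04 for Thy1 and -0.15 for Ly6a. Without the 2 farthest mice it was 0.25 for Cd34, beside 0.52 with the progenitor and 0.40 with the fibroblast genes. For Pdgfrb it was then -0.05, beside -0.01 and -0.005. All genes of a mouse share its library and its tissue piece, and these correlations are descriptions. Msln, Krt8, Krt18 and Muc16 were not in the table.

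The 7 mesothelial markers summed to 293, 299, 400, 316 and 288 CPM in control mice 1 to 5 and to 330, 338, 294, 133, 288 and 151 CPM in IMC-treated mice 1 to 6. IMC-treated mice 4 and 6, with the least mesothelial RNA, were also those with the least Dpp4, and control mouse 3, with the most, was the highest control for Dpp4. The part of mesothelial cells in the Dpp4 value was not tested.

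**Figure D4:**
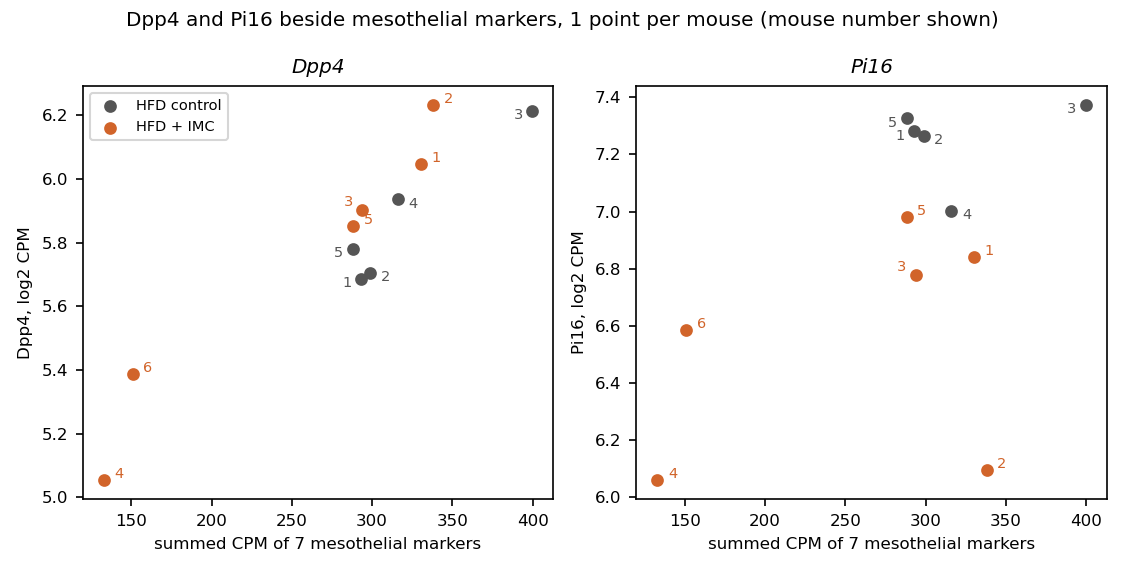
Log2 CPM of Dpp4 (left) and Pi16 (right) against the summed CPM of 7 mesothelial markers, 1 point per mouse with its number, grey for HFD control and orange for HFD + IMC. Dpp4 is at 5.05 with the lowest sum, 133 CPM in IMC-treated mouse 4, and at 6.21 with the highest, 400 CPM in control mouse 3. Pi16 is at 6.06 and 7.37 in these same mice, and at 6.09 in IMC-treated mouse 2 with a sum of 338 CPM.

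By the same measure, the genes most like each other member over the 11 mice were named without regard to function. Pdgfra was nearest to Tmem198b (r = 0.95) and Pcdh7 (r = 0.92), and Pdgfrb to Tgfbr1, a TGF-beta receptor (r = 0.96), and Dtx4 (r = 0.95). Mfap5 was nearest to Fstl1 (r = 0.96) and Medag (r = 0.95), Pi16 to Evc2 (r = 0.90) and Adamtsl3 (r = 0.89), and Cd34 to Atf7 (r = 0.90) and Tubb4a (r = 0.89). Ly6a was nearest to Pagr1a (r = 0.94) and Wdr74 (r = 0.92), Dpt to Emc10 (r = 0.93) and Ndufaf2 (r = 0.92), and Fap to Fam102b (r = 0.92) and E2f3 (r = 0.90). Thy1 was nearest to Zmynd19 (r = 0.96) and Bnip2 (r = 0.92), and these fell to 0.72 and 0.68 without the 2 mice farthest from the median of Thy1. Left out in the same way, the farthest mice took Cd34 to 0.77 with Atf7 and 0.68 with Tubb4a, and Fap to 0.77 with E2f3. Of these genes and the pair named for Dpp4, none was itself a member.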

How the data were processed

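Gonadal WAT RNA of 11 mice (5 HFD control, 6 HFD + IMC) was sequenced with directional mRNA libraries. The authors trimmed reads (Trim Galore, FastQC), aligned and counted them per gene with STAR on mm10 with UCSC annotations, removed genes under 1 CPM in all samples, and deposited log2 CPM values after upper-quartile scaling in edgeR. The strand setting of the counting was not given in the sources used here. Read without strand, Pdgfra, Dpp4, Pi16, Cd34 and Dpt each overlap an annotated gene on the other strand, none of them in the table. The deposited columns of the authors' own comparison (fold changes, p-values) were not used.

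Whole reads were recovered from the values (100% of values whole within 0.1 read), which gave the depth. The main test was limma 3.58.1 with a trend (R 4.3.3), with group as the only factor and no further filter, on the deposited log2 CPM of 12787 genes, with Benjamini-Hochberg adjustment over all of them at 0.05. No count test was run. Differences within a mouse between members were tested by a two-sided exact permutation test, added after the values were seen; the smallest p it can give is 0.00216. Correlations used values centred within each group. Gene positions and exon lengths come from the GENCODE annotation of GRCm38 and promoters from RefSeq. Named genes were the members, up to 4 genes of each list with the smallest p, the PDGF ligands and the 2 genes most like each member; other list genes that passed were named after their values were seen. The members and lists were chosen with earlier results of these data known. Alternatives were limma without a trend, voom on recovered reads (5213 genes called, beside 5236), total-count and median-of-ratios scaling, a constant of 2 reads, a filter at 1 CPM and leaving out each mouse. The statistics were tested on simulated data. The labels give no batch. Intervals cover the spread between mice.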

Additional observations from a re-analysis of the deposited data

Results flagged for a closer look

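Of 196 sets of values of 1 group, 7 had a mouse far from the others by Dixon's ratio, the gap to the nearest mouse divided by the group's range, read against 0.71 for 5 mice and 0.625 for 6. Chance marks about 1 in 20 such sets.

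Thy1 was far higher in HFD control mouse 1 (6.34 log2 CPM) than in the other controls (5.54 to 5.61), with a ratio of 0.908. The summed level of the 10 members was highest in HFD control mouse 3 (2128 CPM, the others 1875 to 1917 CPM), with a ratio of 0.835. The mesothelial markers were highest in the same mouse, with a summed level of 400 CPM beside 288 to 316 CPM and a ratio of 0.749. Bnc1 in control mouse 3 had a ratio of 0.738 (4.37 log2 CPM, the others 3.88 to 4.01). S100b, a Schwann cell marker, was highest in control mouse 5 (1.58 log2 CPM, the others 0.76 to 0.89), with a ratio of 0.835. Dcn, which encodes decorin, was lowest in IMC-treated mouse 4 (10.48 log2 CPM, the others 10.85 to 10.99), with a ratio of 0.729. Ptpn11 was lowest in IMC-treated mouse 1 (8.03 log2 CPM, the others 8.12 to 8.18), with a ratio of 0.629.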

How the results depend on the processing

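Each result was recomputed under 17 alternatives, of which 11 left out 1 mouse. Thy1, Pi16 and Ly6a were called lower in all 17, with adjusted p (limma) from 0.000302 to 0.00137, 0.00185 to 0.0115 and 9.7e-05 to 0.00127. With 1 mouse left out, 3 to 6 members were lower and 0 higher. The 3 were found without control mouse 3, where Cd34 (adjusted p = 0.0813) and Mfap5 (0.0604) lost their calls. Dpp4 ran from -0.22 to 0.020 and Dpt from -0.088 to 0.0069, and both changed sign without IMC-treated mouse 4. Pdgfc ran from -0.0026 to 0.11, Ly6e from -0.029 to 0.12 and Klrb1c from -0.093 to 0.24, none of them called. The LY6 list had 1 to 3 genes higher, and 0 to 9 pairs of members passed the adjusted exact test, whose smallest p is larger with a mouse left out. Over 90 named genes, settings that kept all mice gave 532 results on the same side of the threshold, 4 weaker, 4 stronger and 0 with a changed sign. Leaving out 1 mouse gave 923 on the same side, 47 weaker, 14 stronger and 6 with a changed sign. Il7r lost its call in 3 of these 11 fits, F3 in 2, and Cd248 and Plat in 1 each. The mural list had 0 genes lower, and 1 with total-count scaling. The lower share of all calls was 51.2%, and 59.7% with total-count scaling. The labels pair no control mouse with an IMC-treated mouse, so no paired analysis was run.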
